A study of Mus musculus with 14 samples.

Results

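The genes described here are 34 genes of cholesterol and fatty acid synthesis in wounded mouse fibroblasts, chosen by symbol from the 43472 genes listed in each of 2 deposited tables. They comprise 4 regulators (Srebf1, Srebf2, Scap and Insig1), 18 enzymes of sterol synthesis, the sterol carrier Stard4, 8 enzymes of fatty acid synthesis and desaturation, and 3 genes of cholesterol efflux and uptake that the nuclear receptor LXR controls (Abca1, Abcg1 and Mylip). All 34 genes were found in both tables and passed the filter on low values. The rule of choice used symbols and known roles, and the genes were proposed with earlier results of these data known.

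Primary fibroblasts from tail tips of C57BL/6 mice were cultured in serum-containing DMEM, scratched as a model of a wound and either left untreated or given autologous micrograft (AMG). AMG was prepared from mouse skin biopsies that were disrupted in PBS, filtered, depleted of cells by centrifugation and diluted in growth medium. All groups shared the scratch and the medium, whereas the labels do not describe a control of diluted PBS or of another tissue extract. The 14 sequenced libraries are a time course of replicate 1 in both arms (1, 5, 12 and 24 h) together with replicates 2, 3 and 4 of both arms at 5 h. The labels do not say whether replicates came from separate mice, cultures or extracts, so p-values measure the spread between these samples. The comparisons address how AMG changed the transcriptome of wounded fibroblasts and when.

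Cells build cholesterol from acetyl-CoA through mevalonate, squalene and lanosterol. When membrane sterol is low, SCAP escorts SREBP transcription factors out of the endoplasmic reticulum and they switch on the enzymes of sterol and fatty acid synthesis. When sterol is plentiful, INSIG proteins hold SCAP back, while oxysterols activate LXR, which raises cholesterol export. Fibroblasts in culture are a classic system for this feedback.

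Promoter letters are shown for Insig1, Hmgcs1 and Abca1, which had the lowest adjusted p with the replicate block in their groups among genes with an entry, and around the LXR element of the other genes that held it. Of the 34 genes, 26 had an entry in the RefSeq promoter table (build GRCm38.p6), which covers 250 bases before to 50 bases after each start. Fdps, Fdft1, Sqle, Stard4, Scd1, Scd2, Fads1 and Abcg1 had none. On both strands, the sterol regulatory element was searched as TCACNCCAC, the LXR element as 2 copies of NGGTNA spaced by 4 bases and the NF-Y box as CCAAT. The sterol regulatory element matched 1 of the 26 genes (Hmgcs1) and 1.24% of all 32851 promoters. The LXR element matched 3 genes (Abca1, Fasn and Srebf1) and 0.718% of all promoters. The NF-Y box, a short motif that often stands beside sterol elements, matched 20 of the 26 genes (76.9%) and 37.4% of all promoters. A gene counted as matched if any of its promoters did, and the 26 genes had 32 promoters. The shares of all promoters count single promoters, so the shares of genes and of promoters are unlike measures. A match describes letters in this window and does not show binding. Capitals mark matches, ATTGG being CCAAT on the other strand. The windows are for Insig1, chr5:28071162-28071362 (plus strand, up to its annotated first exon), Hmgcs1, chr13:119690101-119690350 (plus strand), and Abca1, chr4:53159896-53160145 (minus strand).
Insig1: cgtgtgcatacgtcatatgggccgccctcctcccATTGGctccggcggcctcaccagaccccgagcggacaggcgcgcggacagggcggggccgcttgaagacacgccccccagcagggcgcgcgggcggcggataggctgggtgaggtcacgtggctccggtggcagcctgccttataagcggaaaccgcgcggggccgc
Hmgcs1: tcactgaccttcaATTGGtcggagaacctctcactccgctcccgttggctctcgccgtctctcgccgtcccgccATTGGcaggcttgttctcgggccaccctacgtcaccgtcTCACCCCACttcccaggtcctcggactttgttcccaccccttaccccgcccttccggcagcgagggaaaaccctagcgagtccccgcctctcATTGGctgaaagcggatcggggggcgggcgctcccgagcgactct
Abca1: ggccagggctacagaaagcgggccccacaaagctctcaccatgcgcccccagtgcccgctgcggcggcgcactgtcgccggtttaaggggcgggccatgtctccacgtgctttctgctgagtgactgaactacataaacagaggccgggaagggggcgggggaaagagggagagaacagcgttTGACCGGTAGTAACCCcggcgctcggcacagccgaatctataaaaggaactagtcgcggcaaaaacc

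In Hmgcs1 the sterol regulatory element lay from -137 to -129 relative to the start, among NF-Y boxes. In Abca1 the LXR element lay from -67 to -52. Windows of 40 bases show the LXR element, in capitals, of the other genes that held it, at chr11:120824745-120824784 for Fasn and chr11:60210626-60210665 for Srebf1, both on the minus strand. The Srebf1 window lies inside the gene body, before an internal start. The Fasn match had the same letters as the Abca1 match.
Fasn: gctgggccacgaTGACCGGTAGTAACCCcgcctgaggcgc
Srebf1: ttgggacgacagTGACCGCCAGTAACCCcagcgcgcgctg

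Depth ranged from 12545537 to 34696529 reads on genes per library. Values are normalised counts, that is reads divided by the size factor of the library, and the tables of replicate 1 and of replicates 2 to 4 were scaled apart. Ribosomal protein genes (89 genes) took 7.01% of the reads in Untreated 5h replicate 1 and 5.11% in AMG-treated 1h replicate 1, against 2.28% to 3.48% in the other libraries. Across genes, the ratio of AMG to untreated followed exon length, with Spearman's rho = -0.43, 0.42, 0.17 and -0.21 at 1, 5, 12 and 24 h in replicate 1 and -0.32, -0.21 and -0.39 in the pairs of replicates 2, 3 and 4 (12838 and 12458 genes). Of the fibroblast markers, Col1a1, Col1a2, Dcn, Pdgfrb, Thy1 and Vim were all expressed, at 749 or more normalised counts in every library. Thy1 stood at 14712 and 14412 in untreated and treated replicate 3, at 1068 to 1723 in replicates 2 and 4 and at 7204 to 17756 in replicate 1, so the pairs within the second table differ in this marker, and values are also given without the pair of replicate 3. Of the 6 adipocyte markers, Adipoq, Cidec, Lep, Plin1 and Retn stayed at or below 3.48, and only Fabp4 was expressed (259 to 2067). Of the 6 sebocyte markers, Awat2, Cidea, Elovl3 and Mc5r stayed at or below 14.8 and Scd3 at or below 36.4, while Fabp5, which other cells also express, ranged from 464 to 9031.

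The first comparison set AMG against no treatment at 5 h, over replicates 2 to 4, for each of the 34 genes. The data showed lower values with AMG for most of them: 25 of 34 genes were lower in all 3 pairs, against 34.5% of all genes tested, and 2 (Abcg1 and Pmvk) were higher in all 3 pairs, against 31.9%. The median log2 fold change was -0.33 over the sterol enzymes, -0.58 over the fatty acid enzymes and -0.41 over all 34 genes, against -0.02 over the 13096 genes tested. With limma and no pairing, 0 of the 34 genes passed an adjusted p under 0.05, where 1.24% of all genes did (0.970% higher and 0.267% lower). At an unadjusted p under 0.05 there were 7 of 34 genes, against 23.1% of all genes. The replicate numbers paired the libraries, and with the replicate number as a block 19 genes fell and 1 rose, against 19.3% and 17.9% of all genes tested. As deposited, the pair of replicate 1, outside this fit, had the opposite sign at 5 h for 13 of the 19 genes (68.4%). The share was 55.6% of the 2527 genes that fell among all genes tested. With the trend on exon length removed from this pair, Hmgcs1, Hsd17b7, Scd1 and Abca1 turned lower (log2 ratios -0.06, -0.11, -0.06 and -0.33). Mvd turned higher (0.14). The share over all genes after this removal is not given.

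By group, 8 of 18 sterol enzymes, 7 of 8 fatty acid enzymes, Insig1, Stard4, Abca1 and Mylip fell with the block, and Abcg1 rose. Among count tests on the recovered reads, edgeR called 0 genes without the block, where 1.03% of all genes passed, and 18 lower and 1 higher with it, where 18.6% of all genes were lower and 18.4% higher. DESeq2 called Abca1, Hmgcs1 and Mylip lower and 0 genes higher without the block, where 4.43% of all genes were lower and 6.52% higher, and called 14 lower and 1 higher with the block (15.9% and 15.7% of all genes). With the block, removing the length trend left 15 lower and 1 higher (16.3% and 17.9%), and rescaling by the upper quartile 16 lower and 1 higher (16.7% and 15.7%). The size of the difference depended on the pair: the median log2 ratio of the sterol enzymes was -0.50, -0.07 and -0.25 in replicates 2, 3 and 4, and that of the fatty acid enzymes was -0.88, -0.18 and -0.67. In the fit with the block, the medians of the sterol and fatty acid enzymes were -0.19 and -0.48 without the pair of replicate 2, -0.40 and -0.72 without that of replicate 3 and -0.35 and -0.51 without that of replicate 4. Over all 4 pairs they were -0.28 and -0.27.

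The calls depended on the pair as well. Without AMG-treated 5h replicate 3, limma without pairing called 12 genes lower and 1 higher, against 8.04% and 8.75% of all genes. In the fit with the block, 6 genes were lower and 0 higher without the pair of replicate 2 (5.75% and 5.81% of all genes). Without the pair of replicate 3 the counts were 22 and 1 (27.0% and 25.1%), and without that of replicate 4 they were 12 and 1 (10.2% and 10.3%).

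**Figure D1:**
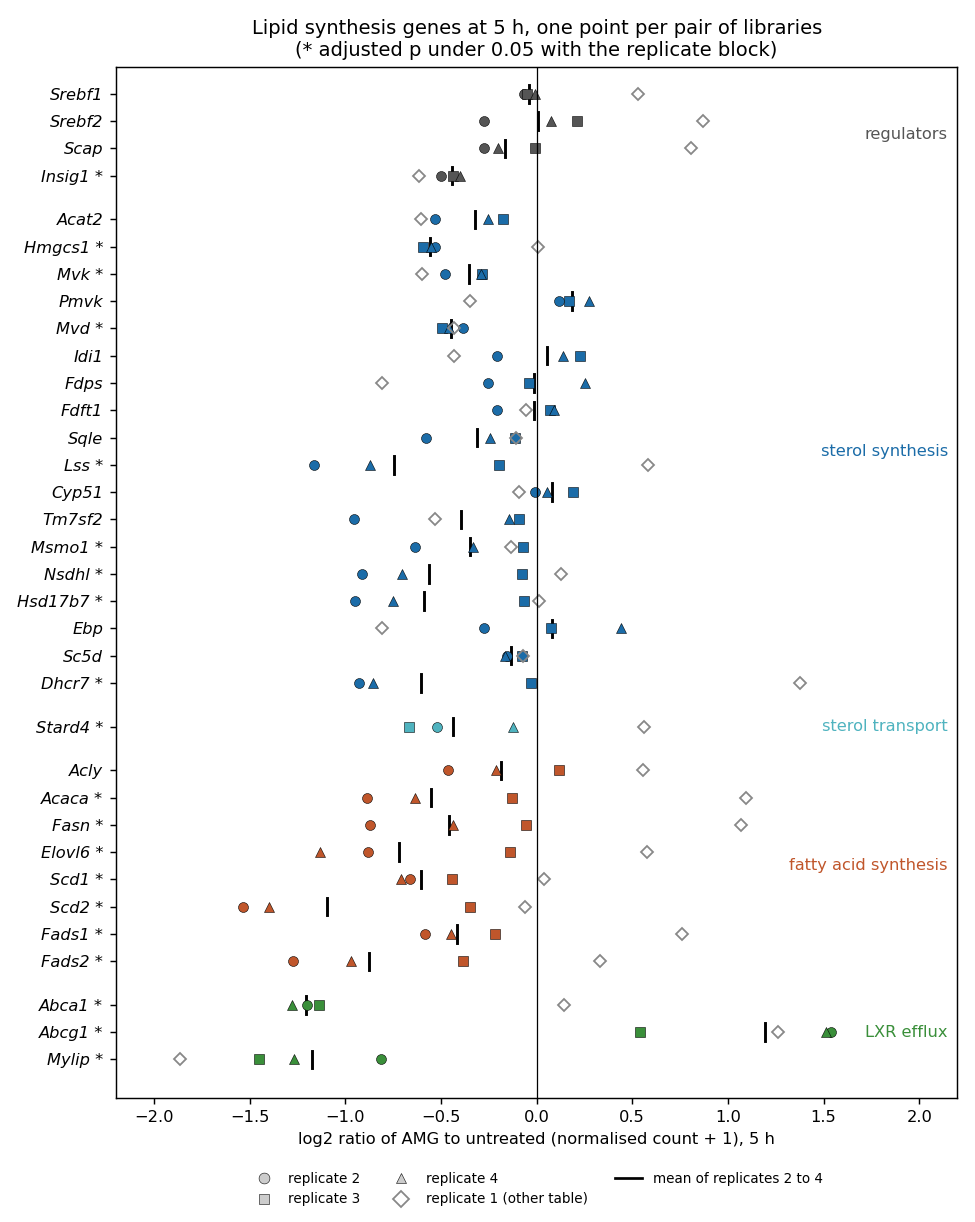
Log2 ratio of AMG to untreated at 5 h for each of the 34 genes, with a filled symbol for each pair of replicates 2 to 4, a vertical bar for their mean and an open diamond for replicate 1, which was scaled in another table; the asterisk marks an adjusted p under 0.05 with the replicate block. Most filled symbols lie left of 0, those of replicate 3 often nearest to it, while replicate 1 lies right of 0 for 7 of the 8 fatty acid enzymes.

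Below, the values of each gene at 5 h are given for replicates 2, 3 and 4 in that order, and those of replicate 1 for 1, 5, 12 and 24 h in that order, always in normalised counts. A log2 fold change is AMG against untreated on log2(normalised count + 1), with the standard error of the fit with the block (n = 3 pairs). The adjusted p values are from limma without the block, from limma with it, and as the range over 25 alternative settings. Replicate 1 had 1 library for each arm and time, so its ratios have no replicate check and are counted at 1.5-fold.

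Among the regulators, Insig1, the retention protein of SCAP and itself a target of SREBP, had untreated values of 428, 657 and 491 and AMG values of 303, 485 and 372 at 5 h. It was lower with AMG in each pair by a like amount, although the groups overlapped. Its log2 fold change was -0.44 ± 0.12 (adjusted p = 0.303, block 0.0159, range 0.00598 to 0.625). In replicate 1 Insig1 stood at 4048, 1424, 1276 and 1140.3 in untreated and at 8981, 928, 258 and 501 in treated cells. The treated culture was thus higher at 1 h, by 1.15 on the log2 scale (0.96 after removing the length trend), and lower at the other 3 times, by as much as 4.93-fold at 12 h.

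Scap, the escort of SREBP, had untreated values of 1302, 1514 and 1544 and AMG values of 1075, 1502 and 1342. The groups overlapped and the difference did not pass the test: the log2 fold change was -0.16 ± 0.10 (adjusted p = 0.564, block 0.214, range 0.0348 to 0.981). The genes of the SREBP factors themselves did not pass the test at 5 h. Srebf2, the factor that favours sterol genes, averaged 2113 ± 224 (SD) untreated and 2139 ± 395 with AMG. Srebf1, which favours fatty acid genes, averaged 1721 ± 227 and 1676 ± 254. Their log2 fold changes were 0.01 and -0.04, with adjusted p = 0.974 and 0.745 with the block. In replicate 1, Srebf2 was lower with AMG by 2.06-fold at 12 h and 1.86-fold at 24 h, whereas Srebf1 differed by less than 1.5-fold at 12 and 24 h. At the earlier times the order changed: at 1 h both were lower with AMG, by 1.47-fold for Srebf2 and 1.53-fold for Srebf1, and at 5 h both were higher, by 1.83-fold and 1.44-fold. Scap was likewise lower at 1 h, with a log2 ratio of -0.72, and higher at 5, 12 and 24 h, with 0.81, 0.34 and 0.46. Of all genes, 25.1% were past 1.5-fold lower at 1 h and 25.6% past 1.5-fold higher at 5 h. After removing the length trend, Srebf2, Srebf1 and Scap kept these signs at 1 and 5 h but stayed within 1.5-fold. Their log2 ratios were then -0.30, -0.41 and -0.44 at 1 h and 0.58, 0.36 and 0.49 at 5 h.

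The sterol enzymes are taken in the order of the pathway. Acat2, which joins acetyl-CoA units, averaged 343 ± 119.6 untreated and 281 ± 125 with AMG at 5 h and did not pass either test, with a log2 fold change of -0.32 (adjusted p = 0.622, block 0.0988). Hmgcs1, which makes the precursor of mevalonate and carries the sterol element shown above, had untreated values of 1094, 1468 and 1373 and AMG values of 758, 971 and 936. All 3 treated values lay below all 3 untreated values, and its log2 fold change was -0.56 ± 0.09 (adjusted p = 0.125, block 0.00250, range 1.4e-04 to 0.328). In replicate 1 Hmgcs1 went from 7714 at 1 h to 1489.9 at 5 h without treatment, and from 9404 to 1498 with AMG. By 12 h the untreated culture held 1946 and the treated one 520.3, and at 24 h 2319.6 and 793.

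Mvk, mevalonate kinase, had untreated values of 604, 677 and 696 and AMG values of 433, 554 and 568, with no overlap. Its log2 fold change was -0.35 ± 0.11 (adjusted p = 0.234, block 0.0332, range 0.00913 to 0.508). In replicate 1 it was within 1.5-fold at 1 h and lower with AMG by 2.16-fold at 12 h and 2.14-fold at 24 h. Pmvk, the next kinase, was higher with AMG in all 3 pairs (log2 ratios 0.12, 0.17 and 0.28) but did not pass the test with the block (adjusted p = 0.320). Mvd, the decarboxylase that yields isopentenyl diphosphate, had untreated values of 269, 315 and 345 and AMG values of 206, 223 and 251. The groups did not overlap, and its log2 fold change was -0.45 ± 0.14 (adjusted p = 0.191, block 0.0300, range 0.00516 to 0.434). In replicate 1 Mvd was at 1079, 659, 506 and 526 in untreated and at 1179, 488, 215 and 338 in treated cells, lower with AMG at 5, 12 and 24 h. Its log2 ratio at 5 h was -0.43 as deposited and 0.14 after removing the length trend.

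The enzymes of the next steps did not pass the test at 5 h. Idi1, the isomerase of isopentenyl diphosphate, had log2 ratios of -0.21, 0.23 and 0.14 in the 3 pairs at 5 h. Fdps, which makes farnesyl diphosphate, had -0.25, -0.04 and 0.25. Fdft1, squalene synthase, had -0.21, 0.07 and 0.09. Each of these genes had pairs on both sides of 0 and adjusted p with the block of 0.751, 0.941 and 0.928. Sqle, squalene epoxidase, was lower in all 3 pairs (-0.58, -0.11 and -0.24) with an adjusted p of 0.0549 with the block. Reads of Fdft1 and of Ctsb on the opposite strand, where the annotation overlaps, cannot be told apart if strand was not used in the counting. The same holds for Mvd with Gm20388, Acaca with Gm11437 and Srebf1 with Rai1. The annotation of Fdps overlaps Gm43738 on the same strand.

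Lss, which closes the ring of lanosterol, had untreated values of 734, 802 and 905 and AMG values of 327, 700.1 and 495, with no overlap. As deposited, it had the largest fall of the sterol enzymes, with a log2 fold change of -0.74 ± 0.17 (adjusted p = 0.177, block 0.00888, range 1.6e-06 to 0.494). This rank did not hold with the block and the length trend removed. Limma then gave -0.49 for Lss, -0.52 for Hmgcs1, -0.51 for Hsd17b7 and -0.50 for Dhcr7. The log2 ratio of Lss as deposited was -1.16 in the pair of replicate 2 and -0.20 in that of replicate 3. Cyp51, which removes a methyl group from lanosterol, did not pass the test at 5 h (adjusted p = 0.531 with the block), with a mean of 1839 ± 209 untreated and 1951 ± 336 with AMG. Tm7sf2, a sterol reductase whose annotation overlaps Vps51 on the same strand, was lower in all 3 pairs (-0.95, -0.09 and -0.14) without passing the test (adjusted p = 0.188 with the block).

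Msmo1, a methylsterol oxidase, had untreated values of 1088, 1042 and 995 and AMG values of 698, 989.5 and 791. Its groups did not overlap, the highest treated value lying just under the lowest untreated one, and its log2 fold change was -0.35 ± 0.12 (adjusted p = 0.239, block 0.0497, range 9.7e-04 to 0.523). Nsdhl, the dehydrogenase of the same demethylation step, had untreated values of 629, 906 and 766 and AMG values of 333, 860.0 and 469.9. Treated replicates 2 and 4 lay below every untreated value and treated replicate 3 did not. The log2 fold change of Nsdhl was -0.57 ± 0.16 (adjusted p = 0.356, block 0.0203, range 2.2e-05 to 0.724).

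Hsd17b7, the ketoreductase of that step, had untreated values of 942, 1209 and 1089 and AMG values of 487, 1153 and 646. It showed the same order, with replicate 3 nearly level (log2 ratio -0.07), and a log2 fold change of -0.59 ± 0.16 (adjusted p = 0.294, block 0.0171, range 3.6e-06 to 0.628). In replicate 1 Hsd17b7 was level at 5 h (log2 ratio 0.01) and lower with AMG by 1.84-fold at 12 h and 1.88-fold at 24 h. Ebp, a sterol isomerase, had pairs on both sides of 0 (-0.27, 0.08 and 0.44). Sc5d, a sterol desaturase, was lower in each pair by 0.17 or less on the log2 scale and did not pass the test (adjusted p = 0.353 with the block). Dhcr7, the reductase of the last step, had untreated values of 209, 227 and 238 and AMG values of 109, 222 and 131. Replicates 2 and 4 were low with AMG and replicate 3 nearly unmoved (log2 ratio -0.03), which gave a log2 fold change of -0.60 ± 0.20 (adjusted p = 0.253, block 0.0422, range 6.3e-04 to 0.912). The pair of replicate 1 went the other way: Dhcr7 was at 794, 311, 509 and 483 in untreated and at 762, 810.0, 385 and 373 in treated cells, 2.60-fold higher with AMG at 5 h. Over all 4 pairs with the block its log2 fold change was -0.11 (limma adjusted p = 0.912).

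Stard4, which carries cholesterol between membranes, had untreated values of 306, 421 and 404 and AMG values of 212, 264 and 370.5 at 5 h. It was lower in all 3 pairs, least so in replicate 4, and the groups overlapped. The log2 fold change was -0.44 ± 0.15 (adjusted p = 0.323, block 0.0429, range 0.0391 to 0.722).

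The second comparison followed the same genes in replicate 1 along the time course. All 18 sterol enzymes were lower with AMG at 12 h and all 18 at 24 h, with median log2 ratios of -1.17 and -1.01, while the median over 13498 genes was -0.01 and 0.02. In the same libraries the summed fibroblast markers were also lower with AMG, at 210168 against 318679 at 12 h and 174071 against 313411 at 24 h. The sum of the sebocyte markers, nearly all of it Fabp5, was 756 against 3118 at 12 h and 481 against 2235 at 24 h, and that of the leukocyte markers 476 against 1092 and 360.0 against 1074. The keratinocyte sum was 129 against 107 and 160.2 against 152, and the adipocyte sum 372 against 471 and 478 against 425. Their part in the ratios of the sterol enzymes was not tested. Past 1.5-fold, 15 of 18 sterol enzymes were lower at 12 h, against 13.6% of all genes, and 13 at 24 h, against 15.3%. At 1 h the median was 0.30 and 2 enzymes were past 1.5-fold higher (Idi1 and Fdps), against 22.6% of all genes. At 5 h the median was -0.12 (0.04 with upper quartile scaling, which shifts the median of all genes by 0.16 at 5 h and by -0.15 at 1 h), 4 enzymes were past 1.5-fold lower, against 25.4% of all genes, and 1 (Dhcr7) was past 1.5-fold higher, against 25.6%. After the length trend was removed, the medians were 0.15, -0.15, -1.15 and -1.04 at 1, 5, 12 and 24 h, and 15 and 14 enzymes were past 1.5-fold lower at 12 and 24 h.

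Idi1 was the sterol enzyme with the largest ratio at both late times. Its untreated values were 4315, 4194, 884 and 1068 and its treated values 9803, 3105, 144 and 221. The treated culture was higher at 1 h and then fell below the untreated one, to a log2 ratio of -2.61 at 12 h (95% counting interval -2.87 to -2.37) and -2.27 at 24 h. Cyp51 had 7482, 5907, 1587 and 2162 without and 11130.2, 5541, 343 and 711 with AMG. Thus Idi1 and Cyp51, whose pairs lay on both sides of 0 at 5 h, differed by 6.11-fold and 4.62-fold at 12 h in this replicate. Ebp differed least, by 1.08-fold at 12 h and 1.01-fold at 24 h.

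Msmo1 and Nsdhl showed the same late gap. Msmo1 was at 5946, 2250.5, 1407 and 1707 in untreated and at 8858, 2049, 375 and 541 in treated cells. Nsdhl was at 1839.5, 1159, 829.9 and 1015 in untreated and at 2156, 1264, 303 and 265 in treated cells, and was among the genes whose ratio was wider at 24 h (3.83-fold) than at 12 h (2.73-fold). Lss was lower with AMG by 2.09-fold at 12 h and 2.73-fold at 24 h, Fdps by 2.55-fold and 2.37-fold, and Sqle by 2.36-fold and 2.35-fold. Stard4 was at 1175, 266, 432 and 505 without and at 1784, 392, 156 and 187 with AMG, higher at 1 and 5 h and lower at 12 and 24 h. Of the 34 genes, 4 were past 1.5-fold higher at 1 h and past 1.5-fold lower at 12 h, namely Insig1, Idi1, Fdps and Stard4, against 3.26% of all genes.

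**Figure D2:**
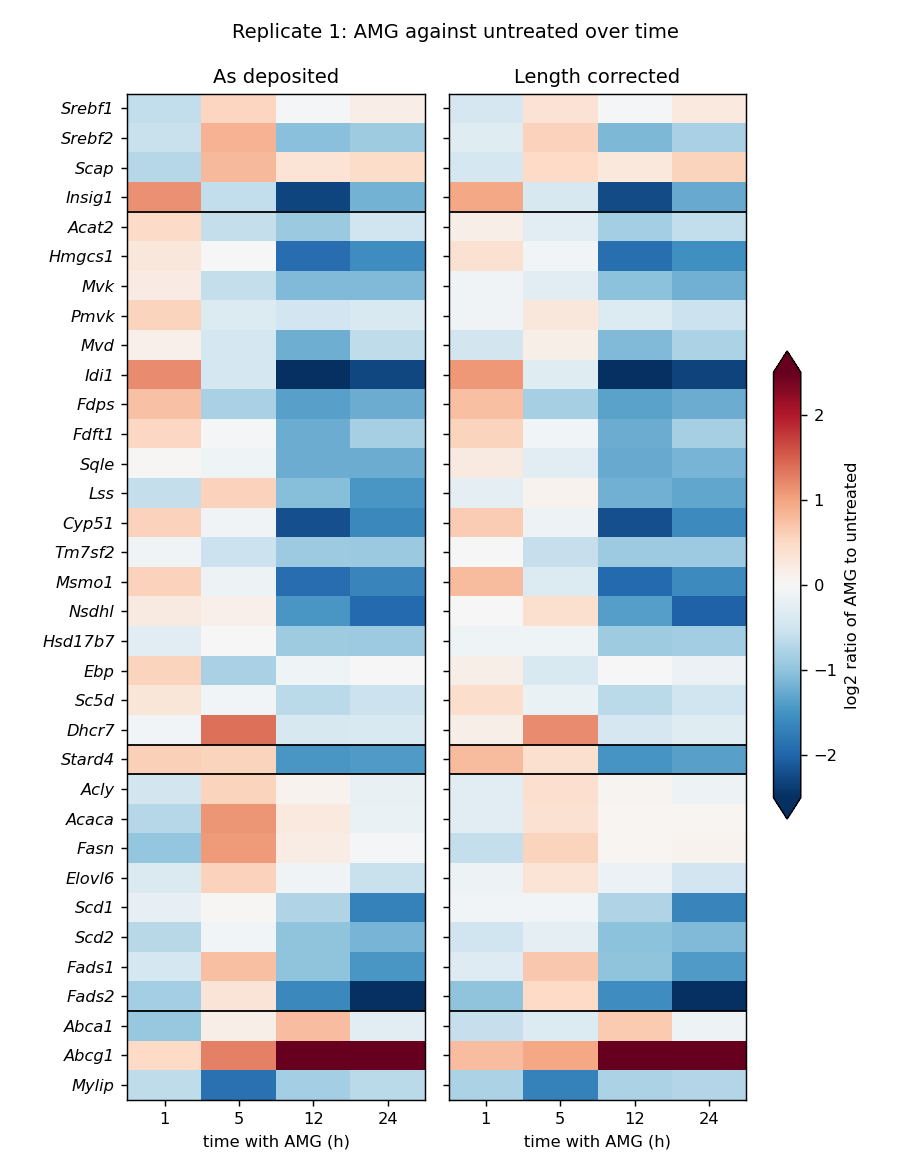
Log2 ratio of AMG to untreated for the 34 genes at 1, 5, 12 and 24 h in replicate 1, as deposited (left) and after removing the trend with exon length (right), with black lines between regulators, sterol enzymes, Stard4, fatty acid enzymes and LXR targets; colours end at 2.5 on either side. The sterol enzymes other than Ebp are blue (lower with AMG) at 12 and 24 h in both panels, and Abcg1 is dark red.

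The sterol enzymes also declined over time without AMG. Relative to 1 h, the median untreated level was 68.5%, 36.3% and 41.4% at 5, 12 and 24 h, and 15 of 18 enzymes were past 1.5-fold lower at 12 h, against 14.6% of all genes. In the AMG arm the median was 52.4%, 16.4% and 20.4%, and 18 of 18 were past 1.5-fold lower at 12 h, against 28.4% of all genes. Both arms thus moved the same way from 1 to 12 h, the treated one further. The first point of the treated arm is the library with 5.11% ribosomal protein reads, and its part in these values was not tested.

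Within the fatty acid group, AMG-treated values at 5 h were lower in all 3 pairs for 7 of 8 enzymes. Acly, which splits citrate into acetyl-CoA, was the exception, with log2 ratios of -0.46, 0.12 and -0.21 (adjusted p = 0.220 with the block). Acaca, which makes malonyl-CoA, had untreated values of 1148, 1526 and 1363 and AMG values of 619.6, 1398 and 878. Fasn, the synthase of palmitate, had untreated values of 3717, 5564 and 5381 and AMG values of 2028, 5353 and 3968. In both, the pairs of replicates 2 and 4 were clearly lower with AMG and that of replicate 3 hardly so, and the groups overlapped. The log2 fold change was -0.55 ± 0.14 (adjusted p = 0.3005, block 0.0140, range 7.5e-06 to 0.862) for Acaca. It was -0.46 ± 0.14 (adjusted p = 0.471, block 0.0278, range 1.9e-05 to 0.979) for Fasn. With the block and the length trend removed, limma gave -0.23 for Acaca (adjusted p = 0.157) and -0.20 for Fasn (adjusted p = 0.210), so neither passed.

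Elovl6, which elongates palmitate, had untreated values of 399, 618 and 511 and AMG values of 216, 561 and 233. Treated replicates 2 and 4 were under the lowest untreated value, and the log2 fold change was -0.72 ± 0.18 (adjusted p = 0.302, block 0.0141, range 1.6e-05 to 0.625). Scd2 and Fads2 had the largest falls of the group. Scd2, which introduces a double bond into saturated fatty acids, had untreated values of 8854, 13556 and 8911 and AMG values of 3049.7, 10653 and 3382. Replicate 3, the highest in both arms, was lower with AMG by 0.35 on the log2 scale and the other pairs by 1.54 and 1.40. The groups overlapped through replicate 3, and the log2 fold change was -1.09 ± 0.19 (adjusted p = 0.229, block 0.00301, range 1.1e-10 to 0.519). Scd1, its paralog, had untreated values of 3464, 5561 and 3747 and AMG values of 2188, 4087 and 2292. Its pairs moved alike (-0.66, -0.44 and -0.71) while the groups overlapped, and the log2 fold change was -0.61 ± 0.09 (adjusted p = 0.260, block 0.00154, range 2.0e-06 to 0.557). Scd1, Scd2 and their relatives are alike in sequence, so reads could be shared between them to an unknown extent.

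Fads2 and Fads1 are the desaturases of polyunsaturated fatty acids. Fads2 had untreated values of 2048, 1919 and 1236 and AMG values of 846, 1469 and 630.3. It was lower in each pair (-1.27, -0.38 and -0.97), with overlap between the groups through treated replicate 3, and its log2 fold change was -0.88 ± 0.15 (adjusted p = 0.189, block 0.00278, range 7.9e-08 to 0.448). Fads1 had untreated values of 3574, 3411 and 2705 and AMG values of 2386, 2933 and 1983. All pairs were lower although the groups overlapped, and the log2 fold change was -0.42 ± 0.10 (adjusted p = 0.233, block 0.0102, range 5.8e-05 to 0.831). Per kilobase of annotated exon, Scd2 had the highest untreated level of the 34 genes at 5 h (1911 normalised counts per kilobase), followed by Acly (882) and Scd1 (870.3), while the highest sterol enzyme was Cyp51 (417), whose annotation overlaps Akap9 on the opposite strand, so that its reads are uncertain in the same way as those of Fdft1.

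Replicate 1 did not show this fall of the fatty acid enzymes at 5 h. There the median log2 ratio was 0.57, with 7 of 8 enzymes higher and 3 past 1.5-fold higher, against 25.6% of all genes, and it was 0.40 after removing the length trend. Fasn, for example, was at 8826, 2262, 3274 and 3735 in untreated and at 4533, 4745, 3738 and 3598 in treated cells, so that its untreated value was lowest at 5 h. That untreated 5 h library is the one with 7.01% ribosomal protein reads, and its part in the ratio was not tested. With all 4 pairs and the block, 1 gene (Mylip) fell and 1 (Abcg1) rose, against 1.33% and 2.58% of all genes, and 3 fell and 1 rose after the length trend was also removed, against 3.51% and 5.58%.

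At 12 and 24 h the desaturases were lower with AMG past 1.5-fold and the other 4 enzymes were not. Scd1, Scd2, Fads1 and Fads2 were past 1.5-fold lower at both times, which made 4 of 8 enzymes against 13.6% and 15.3% of all genes. Fads2 was at 2250.0, 733, 1092 and 1826 without and at 1239.8, 922, 358 and 311 with AMG, a 3.04-fold difference at 12 h and 5.85-fold at 24 h. Scd2 was at 20720.2, 11474, 11717 and 15672 in untreated and at 12885, 10985, 5842 and 7013 in treated cells. Acly, Acaca, Fasn and Elovl6 differed by less than 1.5-fold. Their log2 ratios were 0.08, 0.25, 0.19 and -0.08 at 12 h and -0.19, -0.17, -0.05 and -0.55 at 24 h. As deposited, all 8 enzymes were thus lower at 24 h. After removing the length trend 6 of 8 were lower, with Acaca at 0.04 and Fasn at 0.09. The median log2 ratio of the group was -0.57 at 1 h (-0.30 after removing the length trend), -0.42 at 12 h and -0.86 at 24 h.

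Scd1 and Fads1 had their widest gaps at 24 h. Scd1 was at 6464, 4740.3, 5000.4 and 5961 in untreated and at 5642, 4868, 2952 and 1849 in treated cells, a 3.22-fold difference at 24 h. Fads1 was at 4708, 1892, 2450.1 and 3949.9 in untreated and at 3465, 3204, 1219.8 and 1449 in treated cells, a 2.72-fold difference. For both genes the untreated values at 1 and 24 h lay within 1.5-fold of each other. In the untreated arm the fatty acid group stood at a median of 37.6%, 50.3% and 71.0% of its 1 h level at 5, 12 and 24 h. Past 1.5-fold, 7 of 8 enzymes were lower at 5 h, against 29.2% of all genes, 7 at 12 h, against 14.6%, and 3 at 24 h, against 15.3%. In the AMG arm the medians were 89.2%, 52.7% and 52.9%.

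**Figure D3:**
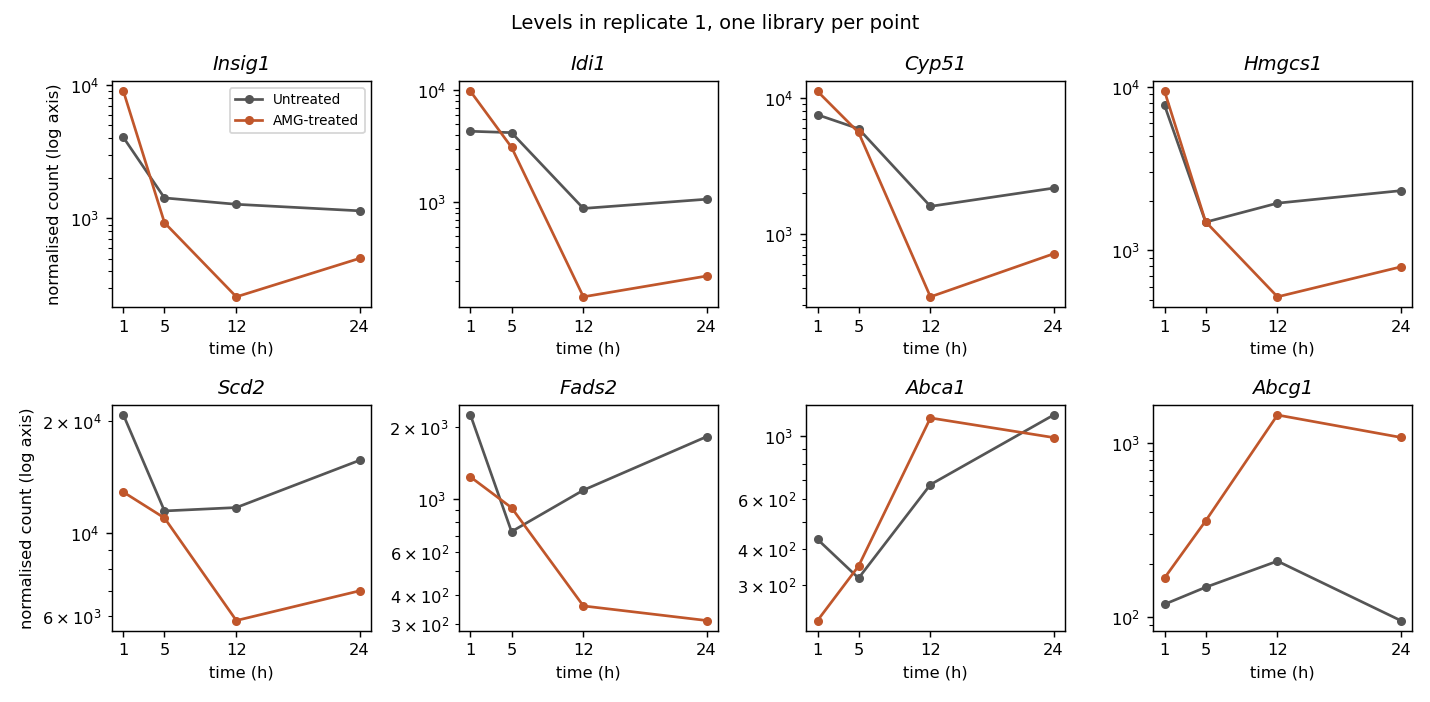
Normalised counts (log axis) of 8 genes over 1, 5, 12 and 24 h in replicate 1, with 1 library per point, grey for untreated and orange for AMG-treated cells. The treated line of Insig1, Idi1 and Cyp51 starts above and ends below the untreated one, Scd2 and Fads2 are lower with AMG at 12 and 24 h, and Abcg1 is higher with AMG at every time.

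The LXR targets did not move together. Abca1, which exports cholesterol to lipid-poor apolipoprotein, had untreated values of 151, 276 and 179.6 and AMG values of 64.9, 125 and 73.4 at 5 h. All treated values lay below all untreated ones, each pair was lower by 1.14 to 1.28 on the log2 scale, and the log2 fold change was -1.21 ± 0.18 (adjusted p = 0.117, block 0.00125, range 2.8e-05 to 0.341). Abcg1, which exports cholesterol to high-density lipoprotein, had untreated values of 59.4, 45.9 and 82.2 and AMG values of 174, 67.2 and 236. It was higher in each pair, least in replicate 3, whose treated value lay within the untreated range, and the log2 fold change was 1.20 ± 0.25 (adjusted p = 0.209, block 0.00616, range 1.1e-05 to 0.482). Mylip, a ubiquitin ligase that limits lipoprotein uptake, had untreated values of 235, 255 and 214 and AMG values of 134, 92.6 and 88.1. Its groups did not overlap, and the log2 fold change was -1.18 ± 0.18 (adjusted p = 0.0630, block 0.00183, range 2.9e-05 to 0.251).

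Of the 34 genes, the groups were apart at 5 h for 7, all lower with AMG (Hmgcs1, Mvk, Mvd, Lss, Msmo1, Abca1 and Mylip), against 13.6% of all genes, and for 0 in the higher direction, against 15.1%. The levels of Abcg1 and Abca1 were low: per kilobase of exon, Abcg1 had 8.57 untreated and 21.8 with AMG, and Abca1 19.5 and 8.46. Mylip had 72.6 and 32.4. In replicates 2 to 4 at 5 h, the lowest read count in any library was 33 for Abcg1 and 51 for Abca1, each in a different library.

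Over time in replicate 1 the 3 LXR targets kept to different courses. Abcg1 was at 118, 148, 209 and 94.96 without and at 167, 355, 1444 and 1074 with AMG, which is 6.89-fold higher at 12 h (log2 ratio 2.79, 95% counting interval 2.61 to 2.98) and 11.2-fold higher at 24 h. Abcg1 was higher with AMG in all 4 pairs at 5 h and at each of the other times. Abca1 was at 433, 316, 675 and 1188 in untreated and at 224, 349, 1159.8 and 989 in treated cells. In both arms it was higher at 24 h than at 1 h. It fell from 1 to 5 h without AMG and from 12 to 24 h with AMG. Between the arms, Abca1 was higher with AMG by 1.72-fold at 12 h and lower by 1.20-fold at 24 h. Mylip was at 233, 569, 522 and 585 in untreated and at 149.5, 155, 291 and 367 in treated cells, lower with AMG at all 4 times.

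**Figure D4:**
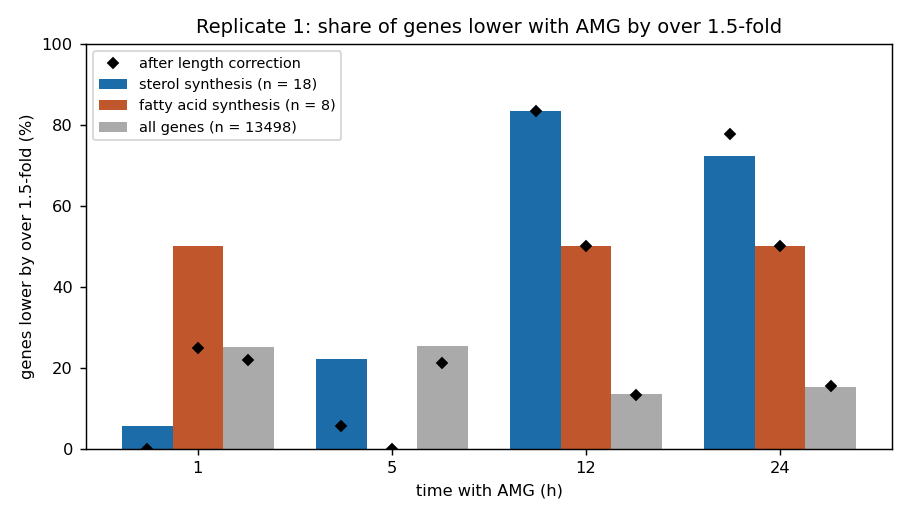
Share of genes lower with AMG by over 1.5-fold in replicate 1 at each time, for the 18 sterol enzymes, the 8 fatty acid enzymes and all 13498 genes, with diamonds for the share after removing the length trend. The sterol enzymes stand at 83.3% at 12 h and 72.2% at 24 h, where all genes stand at 13.6% and 15.3%.

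Other genes of these pathways gave a mixed picture at 5 h. Of 29 further genes, 28 were tested and Mlxipl was too low. With limma and no block 0 passed the test (8 at an unadjusted p under 0.05), and edgeR without the block also called 0. With the block 4 rose and 7 fell (14.3% and 25.0% of the 28), near the 17.9% and 19.3% of all genes. In the pair of replicate 1 at 5 h, 6 of the 7 that fell (Mbtps1, Npc1, Elovl5, Gpam, Lpin1 and Rxra) were higher with AMG, and 1 of the 4 that rose (Npc2) was lower. After removing the length trend, Npc1 and Lpin1 were lower in that pair (log2 ratios -0.01 and -0.22) and Mbtps1 was level (0.01). Insig2, the second retention protein of SCAP, rose from a mean of 1284 ± 262 to 1813 ± 205, with a log2 fold change of 0.51 (adjusted p = 0.161, block 0.00419), so that the INSIG genes moved in opposite directions. Soat1, which esterifies cholesterol for storage, rose from 3206 ± 579.6 to 4829 ± 305, by 0.61 (adjusted p = 0.107, block 0.00205). Npc2 and Npc1 move cholesterol out of lysosomes. Npc2 rose by 0.55 (adjusted p = 0.0901, block 0.00446) and Npc1 fell, with a log2 fold change of -0.66 (adjusted p = 0.190, block 0.00435). Arl4c, an LXR target, rose by 0.36 (adjusted p = 0.449, block 0.0136).

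Among the genes that fell with the block, Lpin1, a phosphatidate phosphatase, went from 247 ± 78.2 to 103 ± 68.1, with a log2 fold change of -1.39 (adjusted p = 0.150, block 0.00129). Gpam, which starts glycerolipid synthesis, had -1.20 (adjusted p = 0.186, block 0.0131), and was 2.30-fold higher with AMG in replicate 1 at 5 h. Elovl5, an elongase of polyunsaturated fatty acids, had -0.48 (adjusted p = 0.108, block 0.00664). Mbtps1, the protease that first cuts SREBP, had -0.34 (adjusted p = 0.157, block 0.0152). Rxra, the partner receptor of LXR, had -0.43 (adjusted p = 0.317, block 0.0161), and Smpdl3a, an LXR target, had -0.39 (adjusted p = 0.588, block 0.0473). The receptor genes Nr1h2 and Nr1h3 did not pass the test (adjusted p = 0.983 and 0.141 with the block).

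Some marker genes moved with AMG in the same fit of replicates 2 to 4 at 5 h. Of the fibroblast markers, Col1a1, Col1a2 and Pdgfrb fell with the block, by 0.63, 0.57 and 0.73 on the log2 scale, and their summed level with that of the other 3 markers was 408139 to 570959 untreated and 313070 to 415399 with AMG. Fabp4 rose (log2 fold change 0.57, adjusted p = 0.0120 with the block). Of the keratinocyte markers, Sfn rose by 1.57 (adjusted p = 8.7e-04 with the block), while Krt1, Krt5 and Krt14 stayed at or below 3.48, and the sum of the 6 markers was 68.2 to 220.0 untreated and 130.4 to 697 with AMG. Of the 6 leukocyte markers, Adgre1, Cd68, Csf1r and Lyz2 were tested and 0 were called. Ptprc, at or below 12.3, and Cd3e, at 0 in all libraries, were not tested. The leukocyte sum was 163 to 1303 untreated and 204 to 1134 with AMG. The part of these marker changes in the values above was not tested, and in bulk samples fewer cells of a type and less RNA per cell cannot be told apart.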

How the data were processed

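Stranded mRNA libraries are named in a paper that used this series, where the methods describe that paper's own sequencing. They are taken to hold here because the processing tools match. The submitters' processing notes name FastQC 0.11.5, TopHat2 2.0.13, SAMtools 0.1.19.24, HTSeq 0.5.3p3, DESeq and the build mm10. Which annotation release was used, and whether counting used strand, is not given in the sources used here. Each deposited value is a signal scaled per library, which the authors made by dividing the read counts of a library by a size factor, apart for replicate 1 and for replicates 2 to 4. In every library 100% of the values were whole multiples of one step within a tolerance of 0.1, so whole reads were recovered. The edgeR test on these reads called 135 of 13096 genes.

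Genes averaging 10 or more normalised counts were tested on log2(normalised count + 1) with limma 3.58.1 (lmFit, eBayes with trend) in R 4.3.3, two-sided, with Benjamini-Hochberg adjustment over all genes tested and a threshold of 0.05. The pseudocount makes fold changes of low genes appear smaller. Alternatives were the replicate block, count tests on the recovered reads (edgeR 4.0.16, DESeq2 1.42.0), other pseudocounts, filters and scalings, leaving out libraries or pairs, and a lowess of each ratio on exon length (span 0.3, GENCODE annotation). Tests were tried on simulated data. As a check of the pairing, the deviations of libraries from their group means correlated at r = 0.65, 0.76 and 0.70 for the same number and at -0.59 to 0.12 otherwise. All 3 numbers were therefore taken as pairs, while the meaning of a number is not stated. No 2 replicates agreed within sampling noise. Replicate 1 had no test. Its counting intervals (95%) cover counting error only, as reads carry no molecular identifiers.

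Every library's 5 h value is given for genes that passed with or without the block and for the 2 largest changes per group, with replicate 1 by value, ratio or sign. The Fads2 promoter window lies on an annotated exon and is not printed. The genes, lists and alternatives were chosen with earlier results of these data known, and the Fasn and Srebf1 windows and the replicate 1 examples after their values were seen.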

Additional observations from a re-analysis of the deposited data

Results flagged for a closer look

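In 3 of the 34 genes, 1 of the 4 paired log2 ratios of AMG to untreated at 5 h lay far from the other 3. Chance gives about 1 in 20 sets of 4 like values, whereas replicate 1 was scaled apart from the other replicates. The share over all genes is not given, so the distance is not shown to be particular to these genes. The pair of replicate 1 was the distant value each time. For Srebf1 its ratio was 0.53 against -0.07, -0.05 and -0.01, a gap of 0.900 of the whole range. For Hmgcs1 it was 0.01 against -0.53, -0.59 and -0.55, a gap of 0.891 of the range. For Abca1 it was 0.14 against -1.20, -1.14 and -1.28, a gap of 0.902 of the range. After removing the length trend, the ratio of replicate 1 was 0.36 for Srebf1, -0.06 for Hmgcs1 and -0.33 for Abca1.

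Insig1 was higher with AMG at 1 h in replicate 1, with a log2 ratio of 1.15, and lower in all 4 pairs at 5 h. With 1 library per arm at 1 h, the difference between these times was not tested.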

How the results depend on the processing

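The number of the 34 genes called at 5 h depended most on the replicate block. Without it, 0 were lower and 0 higher under other pseudocounts, filters, scaling, edgeR, no trend and the length correction, and DESeq2 called 3 lower. With it, 19 were lower and 1 higher with limma, 18 and 1 with edgeR, 14 and 1 with DESeq2, 15 and 1 with the length correction, and 16 and 1 with upper quartile scaling, which was chosen after seeing the data. With all 4 pairs and the block there were 1 and 1, and 3 and 1 with the length correction, also chosen after seeing the data. Leaving out libraries or pairs gave 0 to 22 lower and 0 to 1 higher. Without the block only the fit without AMG-treated 5h replicate 3 called any (12 and 1). Other pathway genes went from 0 to 4 higher and 7 lower with the block, and to 4 and 6 with edgeR and the block, near the shares of all genes (17.9% and 19.3%, and 18.4% and 18.6%). The cause was not tested. Of 525 alternative values of the 21 genes given by library, 376 kept direction and side of the threshold, 147 crossed to pass it, and 2 changed direction, both for Scap (0.079 with 4 pairs and the block, 0.12 with the length correction added). The sterol and fatty acid medians of replicates 2 to 4 kept their sign at 5 h, with an SD between pairs of 0.216 and 0.359. Those of replicate 1, which has no spread of its own, moved by less than these SDs. The sterol median of replicate 1 at 5 h nevertheless went from -0.12 to 0.04 with upper quartile scaling. Depth limits Abcg1 and Abca1 most.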
